A study of Mus musculus with 14 samples.

Results

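The circadian clock genes described here are Arntl, Clock, Per1, Per2, Per3, Cry1, Nr1d1, Nr1d2, Dbp and Ciart, 10 of the 55536 Ensembl genes in the count table, chosen by name through the GENCODE M21 annotation. All 10 were found and all 10 passed the filter on low counts. They were measured by bulk RNA-seq in the hippocampus of 14 mice at 10 months of age, dissected after perfusion with cold PBS, with 1 library per mouse. The 4 MRL mice are B6.MRL-Faslpr animals, which carry the lpr mutation of the death receptor Fas and develop a lupus-like disease. The 4 MRL-IRAK4-KD mice carry lpr together with a kinase-dead form of IRAK4, the kinase that relays signals from Toll-like and interleukin-1 receptors. The 3 C57BL6/J mice carry neither mutation, and the 3 IRAK4-KD mice carry the kinase-dead form alone. All 4 groups are on the C57BL/6 background. The C57BL6/J mice were bought from a vendor and the other 3 groups came from a university colony, so source and genotype cannot be told apart in any comparison with C57BL6/J. The time of day at which tissue was taken is not given in the sources used here. The labels give no sex, and the study favoured female mice after its spleen measurements without stating the sex of the mice sequenced. Both mutations are present in every cell of the animal, and the whole hippocampus was lysed, so a change in RNA per cell and a change in the mix of cells cannot be told apart.

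The mammalian clock is a feedback loop of transcription. ARNTL, also called BMAL1, pairs with CLOCK and binds E-boxes to switch on the Per, Cry, Nr1d, Dbp and Ciart genes, and PER and CRY proteins then repress the pair. NR1D1 and NR1D2, also called REV-ERB alpha and beta, repress Arntl, so that its RNA runs opposite in phase to that of Nr1d1 and Dbp. Most cells keep such a loop, the hippocampus included, where several of these RNAs cycle over the day. Per1 has a further role as an immediate response gene, induced by neuronal activity and by glucocorticoids.

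Total counts ranged from 279941472 to 572398312 per library. Values below are CPM, the counts of a gene relative to the TMM-scaled total of its library, with SD over mice, and each member had at least 2787 counts in every library, so counting error was small beside the spread between mice. Called means an adjusted p below 0.05 in edgeR's quasi-likelihood test over 38070 genes. Whether mice shared a litter or cage is not given in the sources used here, so the p-values measure only the spread between these animals. A pair of libraries stood apart. On the first principal component, which held 49.4% of the variance, MRL-IRAK4-KD replicate 4 scored 113.4 against -20.1 to 4.7 in the others. Its library was the least concentrated by qPCR, and it gave 1.40 counts per read against 1.85 to 2.08 in the other 13 libraries. The kinase-dead mutation was not checked in the counts, but lpr shows in the transcripts of Fas. The full-length Fas transcript had 0 counts in all 8 lpr libraries and 345 to 584 counts in 5 of the 6 non-lpr libraries. In the library labelled IRAK4-KD replicate 3 it had 0 counts, and the shorter transcript Fas-204 had 514, as against 268 to 964 in lpr libraries and at most 7 in the remaining non-lpr libraries. That library also had the highest summed level of 10 thalamic and striatal markers, 385 CPM against 99.4 to 195 in the others. It was kept in the group of its label. In what follows, lpr and non-lpr mice are the 8 and 6 mice by label, and main results are also given without these libraries. The 9 hippocampal neuron markers all passed the filter and summed to between 794 and 2450 CPM. Of these, 8 of 9 were lower in MRL than in MRL-IRAK4-KD mice, at a median log2 fold change of -0.54. Lower with an unadjusted p below 0.05 were 6 of 9, where 11.4% of all genes passed, 5.14% as higher. Without MRL-IRAK4-KD replicate 4, which had the highest sum, 3 of 9 passed and the median was -0.43. The part of this shift in the clock gene differences of that comparison was not tested.

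Length-scaled levels over the 14 mice were highest for the nuclear receptors Nr1d1 and Nr1d2 and lowest for Cry1. Median levels, in CPM per kb of exon, were 25.2 for Nr1d1, 18.7 for Nr1d2, 14.9 for Dbp, 10.8 for Per1, 6.75 for Clock, 6.03 for Per2, 5.12 for Per3, 4.51 for Ciart, 3.62 for Arntl and 3.57 for Cry1. The ranges over mice of each neighbouring pair in that order overlapped. The members were measured in the same mice, and the order of neighbours within mice was not tested. Clock was the steadiest member, with an SD of 0.116 on the log2 scale over all mice and a highest value 1.33 times the lowest. Per2 was the most variable, with an SD of 0.523 and a 4.24-fold range, followed by Per1 at 0.47 with a 3.53-fold range.

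**Figure D1:**
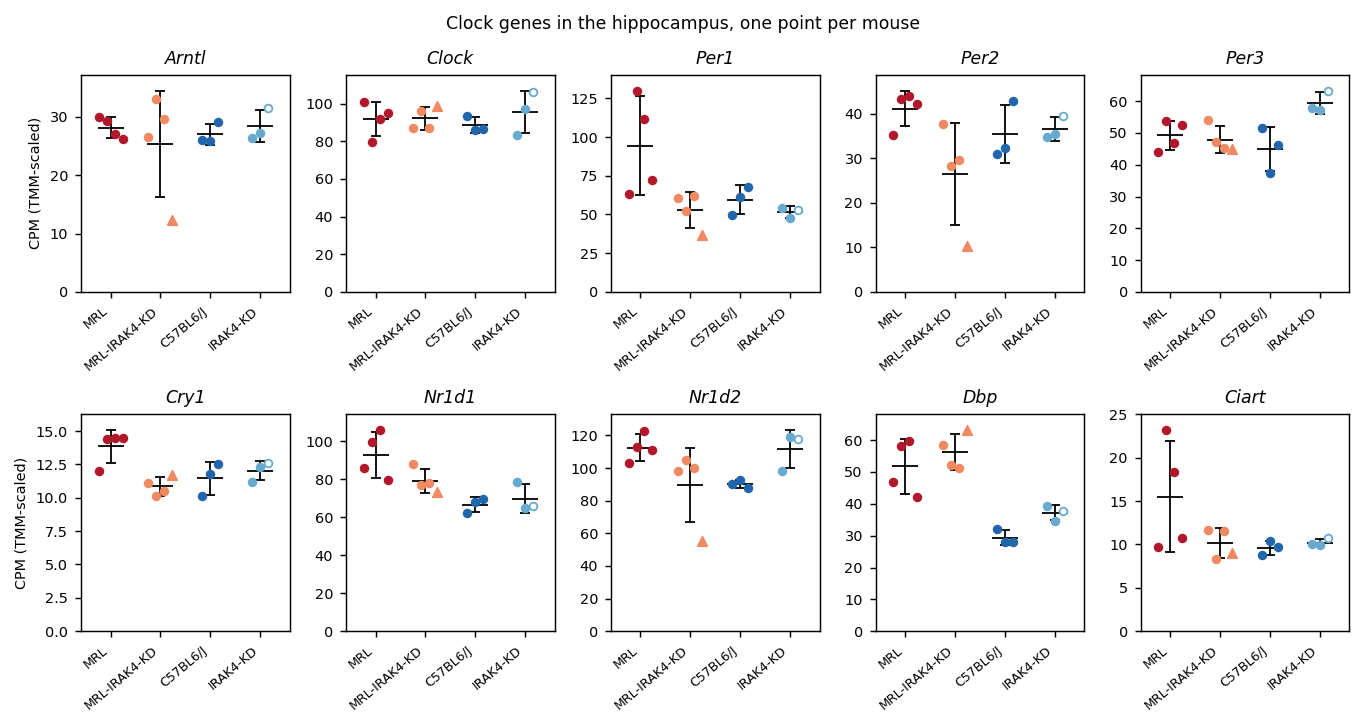
CPM of each clock gene by group, with 1 point per mouse, a bar at the group mean and whiskers of 1 SD. The triangle is MRL-IRAK4-KD replicate 4 and the open circle is the library labelled IRAK4-KD replicate 3. In the Dbp panel the 8 lpr mice sit between 42.1 and 63.2 CPM, above the 27.9 to 39.3 CPM of the 6 non-lpr mice.

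Upstream sequence is shown for members whose window held a clock motif. Of these, Per1, Cry1 and Ciart were among the members of lowest p between MRL and MRL-IRAK4-KD mice, though none was called by edgeR. A relation of motifs to group differences was not tested. RefSeq promoter windows on GRCm38.p6 were found for 9 of the 10 members, all but Per2, in 13 windows. Their 250 bases before the transcript start were searched on both strands. The Dbp window held none of the motifs below, and 159 of its 250 bases lie in an exon of the gene. The E-box CACGTG stood in the windows of Per1, Cry1 and Ciart, and in 6.03% of all 32544 promoter windows. Ciart held it 3 times, and 0.433% of all windows held it more than once. The D-box TTANGTAA, which DBP and its relatives bind, stood in the window of Per3, in 2 copies, against 2.02% of all windows with at least 1 copy and 0.074% with more than 1. The motif TAGGTCA of the REV-ERB and ROR receptors and the cAMP response element TGACGTCA had 0 matches in the 13 windows, and 2.24% and 1.55% of all windows held them. Motifs are given in capitals, each stretch ends before the first base that GENCODE M21 places in an exon of the gene, and the motifs do not overlap one another. A match is a description of these letters and no site of binding was measured. The Per1 stretch (chr11:69098699-69098947, plus strand) lies inside the annotated Per1 gene, before the start of a shorter RefSeq transcript. The Cry1 stretch is chr10:85185065-85185304, the Ciart stretch is chr3:95882252-95882478 and the Per3 stretch is chr4:151044666-151044915, all on the minus strand.
Per1: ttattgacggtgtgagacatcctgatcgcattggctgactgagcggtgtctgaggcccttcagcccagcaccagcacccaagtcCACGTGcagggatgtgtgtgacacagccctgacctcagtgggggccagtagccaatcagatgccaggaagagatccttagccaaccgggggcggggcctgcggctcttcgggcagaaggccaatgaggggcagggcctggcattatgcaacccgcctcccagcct
Cry1: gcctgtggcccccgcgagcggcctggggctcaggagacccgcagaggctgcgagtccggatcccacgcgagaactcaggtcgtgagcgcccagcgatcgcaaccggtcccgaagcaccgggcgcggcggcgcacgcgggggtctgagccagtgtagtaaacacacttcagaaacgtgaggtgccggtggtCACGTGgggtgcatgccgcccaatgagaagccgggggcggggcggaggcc
Ciart: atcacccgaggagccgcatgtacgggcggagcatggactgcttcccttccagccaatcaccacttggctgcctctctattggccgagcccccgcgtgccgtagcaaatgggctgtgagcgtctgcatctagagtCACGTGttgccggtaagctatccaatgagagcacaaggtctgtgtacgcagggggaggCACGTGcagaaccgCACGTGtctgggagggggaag
Per3: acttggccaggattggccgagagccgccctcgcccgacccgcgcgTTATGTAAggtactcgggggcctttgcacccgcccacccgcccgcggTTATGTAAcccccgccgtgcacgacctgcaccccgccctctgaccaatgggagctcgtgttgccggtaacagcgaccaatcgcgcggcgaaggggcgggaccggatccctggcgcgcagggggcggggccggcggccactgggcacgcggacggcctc

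Dbp, which encodes a PAR-bZIP transcription factor driven directly by the clock, was the member that separated the groups labelled lpr from the others. It lies at chr7:45705088-45710203 on the plus strand (ENSMUSG00000059824.12). Dbp had 47.0, 58.1, 59.7 and 42.1 CPM in the MRL mice and 58.5, 52.1, 51.3 and 63.2 CPM in the MRL-IRAK4-KD mice. It had 32.1, 28.0 and 27.9 CPM in the C57BL6/J mice, and 39.3, 34.6 and 37.7 CPM in the IRAK4-KD mice. All 8 lpr mice were above all 6 non-lpr mice, and all 3 IRAK4-KD mice were above all 3 C57BL6/J mice, where 11.2% of all genes had groups that did not overlap. Mean Dbp was 29.3 ± 2.38 CPM (SD, n = 3) for C57BL6/J, 37.2 ± 2.44 CPM (n = 3) for IRAK4-KD, 51.7 ± 8.54 CPM (n = 4) for MRL and 56.3 ± 5.64 CPM (n = 4) for MRL-IRAK4-KD mice. The library labelled IRAK4-KD replicate 3, whose Fas transcripts are those of the lpr libraries, had 37.7 CPM of Dbp, inside the range of the other IRAK4-KD mice and below the 42.1 to 63.2 CPM of the lpr mice. The separation thus held by label and not by Fas transcripts, since the 37.7 CPM of this library lay below the 39.3 CPM of IRAK4-KD replicate 1.

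Dbp rose 1.92-fold in MRL-IRAK4-KD against C57BL6/J mice (log2 fold change 0.94, SE 0.13, edgeR adjusted p = 0.00829), and it was the only 1 of 10 members called there, where 0.0972% of all genes were called, 0.0184% as higher. Its groups did not overlap, as for 8.71% of all genes. The call was lost without C57BL6/J replicate 2 (adjusted p = 0.0874) or C57BL6/J replicate 3 (0.089), in a fit of those 2 groups alone (0.136) and with the replicate number as a block (0.0632), while the log2 fold change stayed between 0.88 and 1.0 under all 15 alternatives. Without both libraries that stood apart the adjusted p was 0.00961. In MRL against C57BL6/J mice the log2 fold change was 0.82 (SE 0.13) with an adjusted p of 0.188, and in MRL-IRAK4-KD against IRAK4-KD mice, both from the colony, it was 0.60 (SE 0.13) with an adjusted p of 0.196. The groups did not overlap in either comparison, as for 9.63% and 8.74% of all genes. DESeq2 called Dbp in both (adjusted p = 1.85e-05 and 0.00785), as did limma-voom with quality weights (0.0254 and 0.0411). Over all genes DESeq2 called 203 and 305 of 37651 in these comparisons, and limma-voom 38 and 275 of 38070. Without MRL-IRAK4-KD replicate 4 in the fit, edgeR also called Dbp in MRL against C57BL6/J mice (adjusted p = 0.0244), and not in MRL-IRAK4-KD against IRAK4-KD mice (0.123). In MRL against MRL-IRAK4-KD mice the log2 fold change was -0.12 (SE 0.12, adjusted p = 0.677), with overlapping groups.

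A contrast of the lpr with the non-lpr groups, averaged over the IRAK4 mutation, was added after these values had been seen. It gave a log2 fold change of Dbp of 0.71 (SE 0.09, edgeR adjusted p = 0.0228), where 0.0657% of all genes were called, 0.0447% as higher. The adjusted p was between 0.0651 and 0.106 without C57BL6/J replicate 1 (0.0651), 2 (0.0821) or 3 (0.0748), IRAK4-KD replicate 2 (0.0938) or the library labelled IRAK4-KD replicate 3 (0.106), with log2 fold changes of 0.68 to 0.74. With the replicate number as a block it was 0.0823. Groups that do not overlap in this contrast were found for 0.457% of all genes. The interaction of background and mutation was -0.22 for Dbp (SE 0.18, edgeR adjusted p = 0.914).

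In the transcript table most counts of Dbp lay in the protein-coding transcript Dbp-201, which held 58.36% to 81.97% of the counts of the gene. Dbp-201 had 30.5 to 50.8 CPM in the 8 lpr mice and 19.2 to 27.0 CPM in the 6 non-lpr mice, without overlap. The retained-intron transcript Dbp-205 had 5.08 to 7.87 CPM in lpr and 4.39 to 9.62 CPM in non-lpr mice, and Dbp-202, also a retained intron, had 2.74 to 4.05 and 2.27 to 4.44 CPM, so both overlapped. The minor protein-coding transcript Dbp-203 had 106 to 814 counts in 6 of the 8 lpr libraries, 0 counts in the other two, and 0 counts in all 6 non-lpr libraries. StringTie divides reads among transcripts by an estimate, and no test was made on single transcripts. The 3' end of Dbp overlaps Sphk2, a sphingosine kinase on the opposite strand, and whether counting used strand is not given in the sources used here. Sphk2 had a log2 fold change of 0.03 (SE 0.10, adjusted p = 0.977) in the averaged contrast. Of the 137 tested genes within 1000000 bases of Dbp, 16 (11.7%) had an unadjusted p below 0.05 in that contrast, against 10.2% of all genes, and 0 had an adjusted p below 0.05 in edgeR.

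**Figure D2:**
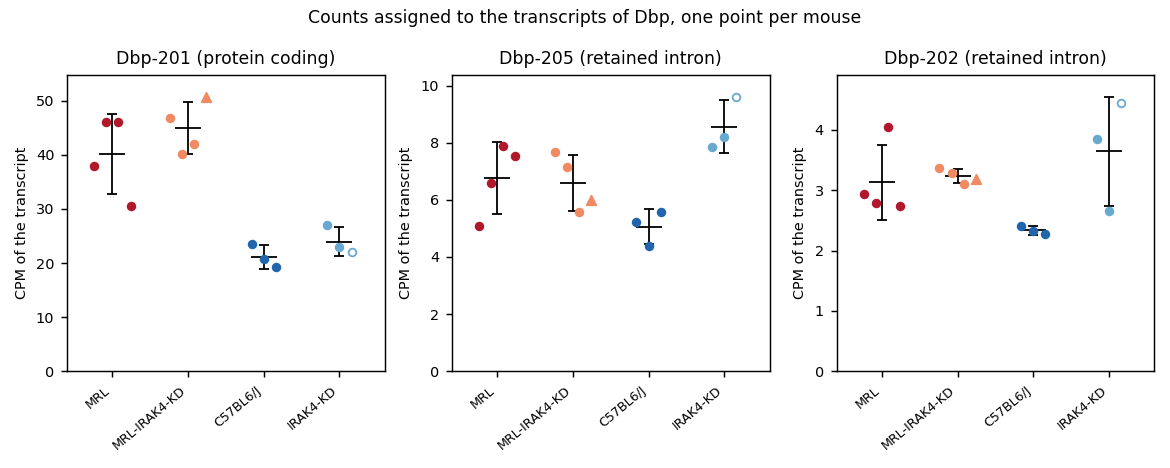
CPM assigned to 3 transcripts of Dbp in each mouse, with a bar at the group mean and whiskers of 1 SD. Symbols are those of the plot of all members. Dbp-201 is at 30.5 CPM or more in the lpr mice and at 27.0 CPM or less in the others, and the retained-intron transcripts overlap.

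Markers of some cell types were higher in the groups labelled lpr. Those of hippocampal neurons, thalamus and striatum, and meninges and fibroblasts had median log2 fold changes of -0.02, -0.14 and -0.08 in the averaged contrast. The 5 microglial markers Cx3cr1, P2ry12, Tmem119, Csf1r and Aif1 summed to 203 to 258 CPM in MRL, 196 to 212 in MRL-IRAK4-KD, 172 to 189 in C57BL6/J and 171 to 186 in IRAK4-KD mice. In the averaged contrast 4 of the 5 were higher at an unadjusted p below 0.05, with a median log2 fold change of 0.29, where 10.2% of all genes passed. The 5 oligodendrocyte markers summed to 3540 to 5290 CPM in lpr and 2930 to 4020 CPM in non-lpr mice, and 4 of the 5 were likewise higher, with a median of 0.33. The 5 blood markers, 4 globin genes and Alas2, summed to 83.9 to 369 CPM in MRL, 52.9 to 193 in MRL-IRAK4-KD, 43.6 to 93.6 in C57BL6/J and 19.8 to 55.3 in IRAK4-KD mice. All 5 were higher in the averaged contrast at an unadjusted p below 0.05, with a median of 1.48. In MRL against MRL-IRAK4-KD mice 3 of 5 were, with a median of 1.68, where 11.4% of all genes passed, 5.14% as higher. The 5 astrocyte markers summed to 1200 to 1520 CPM in lpr and 1120 to 1400 CPM in non-lpr mice, and 1 of 5 was higher. Of all these markers 0 were called by edgeR. Choroid plexus markers varied from 65.8 to 7770 CPM, with the highest sum in MRL-IRAK4-KD replicate 4. All 7 were higher in the averaged contrast, with a median of 1.19, and 1 of 7 had an unadjusted p below 0.05. All 7 were also higher in MRL-IRAK4-KD against C57BL6/J mice, with a median of 1.93. There, 4 of 7 passed, where 8.62% of all genes did, 4.33% as higher. By edgeR 0 of 7 were called in either. The part of these cells in the difference of Dbp was not tested.

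Arntl and Clock, the activators of the loop, did not separate any pair of groups. Arntl (chr7:113207465-113314126, plus strand) had 26.3 to 30.0 CPM in MRL, 25.8 to 29.1 in C57BL6/J and 26.4 to 31.5 in IRAK4-KD mice. In the MRL-IRAK4-KD mice it had 26.6, 33.0, 29.7 and 12.3 CPM, so that replicate 4 was below all other mice and replicate 2 above them. Log2 fold changes of Arntl between groups lay between -0.16 and 0.15, with SEs of 0.22 to 0.25, so a change of that order would not have been detectable. In MRL against MRL-IRAK4-KD mice it was -0.07 (SE 0.09) without replicate 4. Clock (chr5:76209868-76304792, minus strand) had 79.4 to 101 CPM in MRL, 87.1 to 98.6 in MRL-IRAK4-KD, 86.0 to 93.6 in C57BL6/J and 83.5 to 106 in IRAK4-KD mice, and its log2 fold changes lay between -0.05 and 0.11 with SEs of 0.10 to 0.11.

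Per1, which feeds back on the activators and responds to stimuli, had the largest fold change of the members between MRL and MRL-IRAK4-KD mice. Per1 (chr11:69095217-69109960, plus strand) had 63.0, 130, 112 and 72.4 CPM in MRL mice and 60.4, 52.4, 62.0 and 36.8 CPM in MRL-IRAK4-KD mice. It had 49.6, 61.6 and 67.7 CPM in C57BL6/J and 54.5, 47.5 and 53.0 CPM in IRAK4-KD mice. All 4 MRL mice were above all 4 MRL-IRAK4-KD mice, by a margin of 1 CPM at its narrowest. Groups did not overlap there for 5.26% of all genes. For Per1, MRL replicates 2 and 3 were far above the rest. The log2 fold change of MRL against MRL-IRAK4-KD mice was 0.83 (SE 0.22) with an edgeR adjusted p of 0.335. It ranged from 0.64 without MRL replicate 2 to 0.98 without MRL replicate 1, and was 0.70 (SE 0.22) without MRL-IRAK4-KD replicate 4.

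Ciart, a repressor of the ARNTL and CLOCK pair, had the same pair of high mice. Ciart (chr3:95878503-95882251, minus strand) had 9.74, 23.2, 18.3 and 10.8 CPM in MRL mice, and 11.7, 8.35, 11.5 and 8.97 CPM in MRL-IRAK4-KD mice. It had 8.81 to 10.4 CPM in C57BL6/J and 9.96 to 10.7 CPM in IRAK4-KD mice. MRL replicates 1 and 4 lay inside the range of MRL-IRAK4-KD mice, so the groups overlapped. The log2 fold change of MRL against MRL-IRAK4-KD mice was 0.61 (SE 0.23, adjusted p = 0.437), and 0.36 (SE 0.20, adjusted p = 0.559) without MRL replicate 2.

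Immediate early genes moved with Per1 and Ciart over the same mice. Fos, the classic marker of recent neuronal firing, had 10.4, 86.2, 34.5 and 11.9 CPM in MRL mice and 2.98 to 8.36 CPM in MRL-IRAK4-KD mice. It had 8.99 to 21.8 CPM in C57BL6/J and 6.20 to 10.4 CPM in IRAK4-KD mice. Egr1 had 144, 387, 299 and 150 CPM and Npas4 16.0, 49.6, 21.0 and 14.8 CPM in MRL mice, again highest in replicates 2 and 3. The 12 immediate early genes summed to 1520 CPM in MRL replicate 2, 923 CPM in MRL replicate 3 and 221 to 602 CPM in the other 12 mice, with the lowest value in MRL-IRAK4-KD replicate 4, which also had the lowest Per1. All 12 were higher in MRL than in MRL-IRAK4-KD mice with an unadjusted p below 0.05, where 11.4% of all genes passed, 5.14% as higher, and 0 of 12 were called by edgeR. Their median log2 fold change was 1.36 against 0.0023 over all genes, and without MRL-IRAK4-KD replicate 4 it was 1.28, with 11 of 12 past that threshold. Fos had a log2 fold change of 2.63 (SE 0.59, adjusted p = 0.247), Npas4 of 1.32 (SE 0.31, adjusted p = 0.276) and Egr1 of 1.49 (SE 0.35, adjusted p = 0.281). MRL replicate 3 also held pituitary RNA, with 87.2 CPM over 7 pituitary markers against 1.57 to 6.37 CPM in the others, and replicate 2 did not. The part of these genes in the Per1 and Ciart values was not tested.

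**Figure D3:**
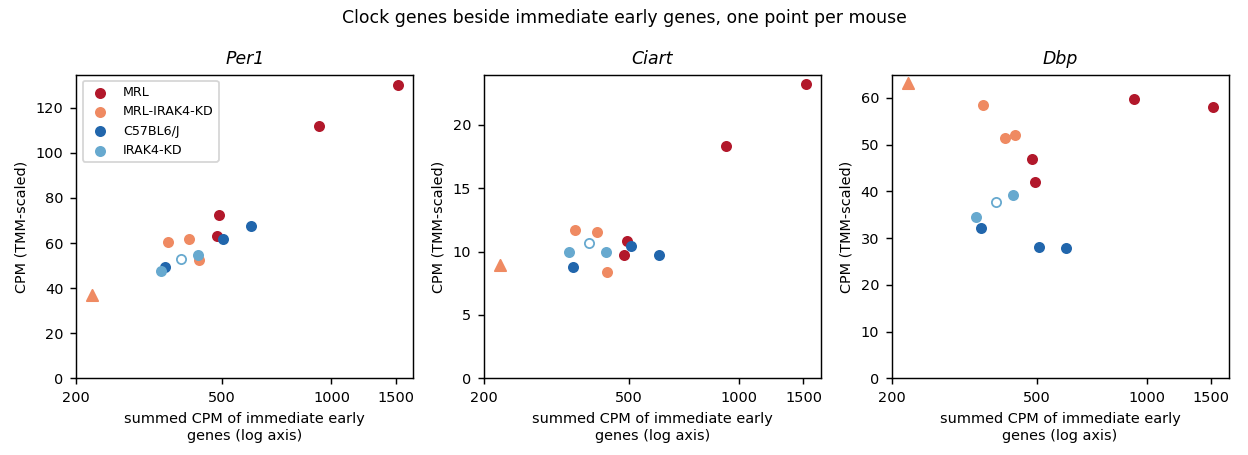
CPM of Per1, Ciart and Dbp in each mouse against the summed CPM of 12 immediate early genes on a log axis, with colours for groups and symbols as in the plot of all members. MRL replicates 2 and 3, at 1520 and 923 CPM on the horizontal axis, are the highest mice for Per1 and Ciart. Dbp is at 42.1 CPM or more in the 8 lpr mice and at 39.3 CPM or less in the others. Among MRL mice Dbp is also higher in replicates 2 and 3 (58.1 and 59.7 CPM) than in replicates 1 and 4 (47.0 and 42.1 CPM). The part of the immediate early genes in the Dbp values was not tested.

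Glucocorticoid-responsive genes were read beside Per1 for the same reason. Of 10 such genes, 5 were higher and 5 lower in MRL than in MRL-IRAK4-KD mice, and their median log2 fold change was 0.06. Of these 10, 3 had an unadjusted p below 0.05, all higher, where 5.14% of all genes were higher. By edgeR 0 were called. Without MRL-IRAK4-KD replicate 4, 7 were higher and 3 lower, with a median of 0.1, and 4 passed that threshold, all higher. The metallothionein genes Mt1 and Mt2 had log2 fold changes of -0.81 (SE 0.42, edgeR adjusted p = 0.446) and -0.75 (SE 0.36, adjusted p = 0.440). Both were far higher in MRL-IRAK4-KD replicate 4, at 474 and 252 CPM, than in any other mouse. The other MRL-IRAK4-KD mice had 88.5 to 126 and 56.2 to 92.7 CPM, and the MRL mice 95.2 to 121 and 61.2 to 74.9 CPM. Sgk1, a kinase induced by corticosterone, had 93.7, 76.8, 120 and 83.9 CPM in MRL mice against 60.2, 53.3, 62.8 and 64.9 CPM in MRL-IRAK4-KD mice, with a log2 fold change of 0.63 (SE 0.14, adjusted p = 0.239). Tsc22d3, also known as GILZ, had a log2 fold change of 0.48 (SE 0.14, adjusted p = 0.400), and Pdk4 of 0.50 (SE 0.20, adjusted p = 0.437). Sgk1 was 43.9 to 47.5 CPM in C57BL6/J and 54.3 to 77.9 CPM in IRAK4-KD mice, so the IRAK4-KD mice were above the C57BL6/J mice. Groups did not overlap for 11.2% of all genes in that comparison. Of 8 temperature-responsive genes, 3 were higher and 1 lower at an unadjusted p below 0.05, where 11.4% of all genes passed, and the median log2 fold change was 0.08. These included the heat shock genes Hspa1a and Hspa1b at log2 fold changes of 0.35 (SE 0.14, adjusted p = 0.437) and 0.38 (SE 0.17, adjusted p = 0.439), and Hsp90aa1 at -0.62 (SE 0.26, adjusted p = 0.437). Without MRL-IRAK4-KD replicate 4, Hsp90aa1 was at -0.13 (SE 0.08, adjusted p = 0.657), and 1 of the 8 was higher and 0 lower at that threshold.

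The repressors Per2, Per3 and Cry1 differed from Per1 in pattern. Per2 (chr1:91415982-91459324, minus strand) had 35.2, 43.3, 43.9 and 42.1 CPM in MRL mice and 37.7, 28.2, 29.5 and 10.4 CPM in MRL-IRAK4-KD mice, against 31.0 to 42.8 CPM in C57BL6/J and 34.7 to 39.5 CPM in IRAK4-KD mice. The log2 fold change of MRL against MRL-IRAK4-KD mice was 0.64 (SE 0.27, edgeR adjusted p = 0.439) and fell to 0.38 (SE 0.13, adjusted p = 0.427) without MRL-IRAK4-KD replicate 4. Cry1 (chr10:85131700-85185064, minus strand) had 12.0, 14.4, 14.5 and 14.5 CPM in MRL mice and 10.1 to 11.7 CPM in MRL-IRAK4-KD mice, without overlap, as for 5.26% of all genes. Its log2 fold change was 0.35 (SE 0.10, adjusted p = 0.401), with a range of 0.34 to 0.42 over 16 alternatives. Cry1 was one of the least variable members, with an SD of 0.176 on the log2 scale over the 14 mice. DESeq2 called Per1 and Cry1 in this comparison (adjusted p = 0.033 and 0.0388), and limma-voom with quality weights called Cry1 (0.0258). Over all genes DESeq2 called 397 of 37651 there, and limma-voom 213 of 38070.

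Per3 was high in the IRAK4-KD mice. Per3 (chr4:151003652-151044665, minus strand) had 57.8, 57.2 and 63.3 CPM in IRAK4-KD mice, the last from the library labelled IRAK4-KD replicate 3, and 51.4, 37.5 and 46.1 CPM in C57BL6/J mice. It had 44.0 to 53.6 CPM in MRL mice and 45.0 to 54.1 CPM in MRL-IRAK4-KD mice, so the 3 IRAK4-KD mice were above all 11 others. The share of all genes with that pattern was not computed. Groups did not overlap for 11.2% of all genes in IRAK4-KD against C57BL6/J mice, and for 8.74% in MRL-IRAK4-KD against IRAK4-KD mice. The log2 fold change of Per3 in IRAK4-KD against C57BL6/J mice was 0.40 (SE 0.13, unadjusted p = 0.00698 and adjusted p = 1.0 in edgeR), and that in MRL-IRAK4-KD against IRAK4-KD mice was -0.31 (SE 0.12, edgeR adjusted p = 0.553). Without the library labelled IRAK4-KD replicate 3 these values were 0.35 (SE 0.14, adjusted p = 1.0) and -0.26 (SE 0.14, adjusted p = 0.891). Per3 lies within Camta1, a neuronal transcription factor gene on the same strand with more counts, and reads shared by both could not be placed. Camta1 had a log2 fold change of 0.20 (SE 0.11, adjusted p = 1.0) in IRAK4-KD against C57BL6/J mice.

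Nr1d1 and Nr1d2, the nuclear receptors that repress Arntl, were the most abundant members per length. Nr1d1 (chr11:98767932-98775333, minus strand) had 85.9, 99.4, 106 and 79.6 CPM in MRL mice, 88.0, 76.8, 78.1 and 73.2 CPM in MRL-IRAK4-KD, 62.2, 68.3 and 69.6 CPM in C57BL6/J and 78.8, 64.9 and 65.7 CPM in IRAK4-KD mice. All 8 lpr mice were above all 3 C57BL6/J mice. Groups did not overlap for 9.63% of all genes in MRL and 8.71% in MRL-IRAK4-KD against C57BL6/J mice. For Nr1d1, IRAK4-KD replicate 1 lay among the lpr mice. The log2 fold change was 0.47 (SE 0.12, edgeR adjusted p = 0.558) in MRL against C57BL6/J mice and 0.33 (SE 0.08, adjusted p = 0.195) in the averaged contrast. DESeq2, which called 203 and 761 of 37651 genes in these, called it in both (adjusted p = 0.0296 and 0.0174). In the averaged contrast limma-voom with quality weights, which called 516 of 38070 genes, also called it (0.0262). Its 3' end overlaps Thra, the thyroid hormone receptor alpha gene on the opposite strand, which had a log2 fold change of 0.06 (SE 0.08, adjusted p = 0.860) in the averaged contrast. Nr1d2 (chr14:18204054-18239127, minus strand) had 103 to 123 CPM in MRL, 87.9 to 92.9 in C57BL6/J and 98.5 to 119 in IRAK4-KD mice, and 98.2, 105, 99.9 and 55.6 CPM in MRL-IRAK4-KD mice, the last in replicate 4. Both MRL and IRAK4-KD mice were above the C57BL6/J mice, with log2 fold changes of 0.31 (SE 0.17, adjusted p = 0.925) and 0.31 (SE 0.18, adjusted p = 1.0). Groups did not overlap for 9.63% and 11.2% of all genes in these comparisons.

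**Figure D4:**
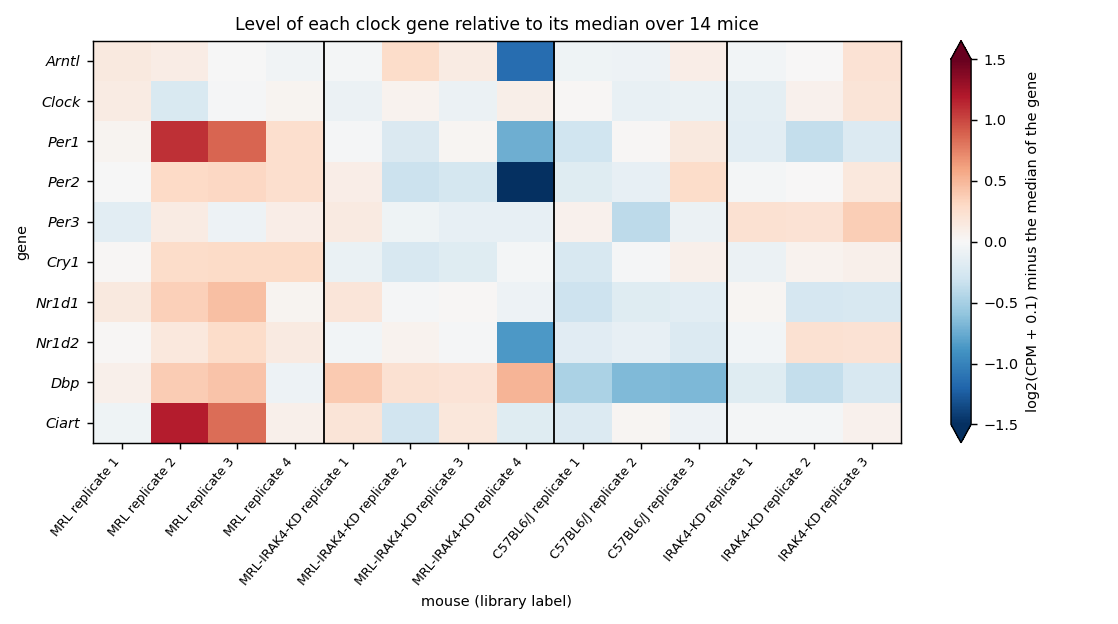
Difference of log2(CPM + 0.1) of each clock gene in each mouse from the median of that gene over 14 mice, with red for higher and blue for lower, and lines between the 4 groups. The column of MRL-IRAK4-KD replicate 4 is low for Arntl, Per1, Per2 and Nr1d2, and the Dbp row is red in the 8 lpr mice except MRL replicate 4.

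Counted over the members, 0 of 10 were called by edgeR in MRL against MRL-IRAK4-KD mice, where 0.0972% of all genes were called. DESeq2 called 2 members and 397 of 37651 genes, and limma-voom with quality weights 1 member and 213 of 38070 genes. At an unadjusted p below 0.05, the threshold of the study, 4 of 10 were higher (Per1, Per2, Cry1 and Ciart) and 0 lower, where 11.4% of all genes passed, 5.14% as higher. Only Per1 and Cry1 had groups that did not overlap, against 5.26% of all genes. The median log2 fold change of the members was 0.28, with 8 of 10 higher, against 0.0023 over all genes. Without MRL-IRAK4-KD replicate 4 the median was 0.18, with 8 of 10 higher, 4 of them at that threshold. Over all alternatives the number of members at that threshold ran from 2 to 6. In MRL against C57BL6/J mice edgeR called 0 of 10 members and 0.0% of all genes. DESeq2 called 2 members and 203 of 37651 genes, and limma-voom 1 member and 38 of 38070 genes. There, 5 of 10 were higher at an unadjusted p below 0.05 (Dbp, Nr1d1, Per1, Ciart and Cry1), where 5.55% of all genes passed, 3.16% as higher, and all 10 log2 fold changes were above 0, with a median of 0.29. That count of 5 also ran from 2 to 6 over the alternatives. The 3 members without overlap there were Dbp, Nr1d1 and Nr1d2, against 9.63% of all genes. These comparisons share the MRL mice, so the counts are not independent.

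In IRAK4-KD against C57BL6/J mice 0 of 10 were called by edgeR, DESeq2 and limma-voom alike, where edgeR called 0.147% of all genes. Per3 and Dbp were higher at an unadjusted p below 0.05, where 3.8% of all genes passed, 1.66% as higher, and the median log2 fold change was 0.08. Without the library labelled IRAK4-KD replicate 3 only 1 member passed, Per3, and the median was 0.04. In MRL-IRAK4-KD against IRAK4-KD mice edgeR called 0 of 10, where 0.0735% of all genes were called. DESeq2 and limma-voom each called Dbp, with 305 of 37651 and 275 of 38070 genes called. At an unadjusted p below 0.05 Dbp was higher and Per3 lower, where 8.63% of all genes passed, 5.18% as higher and 3.45% as lower. Without the library labelled IRAK4-KD replicate 3 only Dbp passed. In MRL-IRAK4-KD against C57BL6/J mice Dbp was also the only member at an unadjusted p below 0.05, where 8.62% of all genes passed, 4.33% as higher. The interaction asks whether the effect of the kinase-dead form differs between the backgrounds. Its log2 values were below 0 for all 10 members, with a median of -0.43 against 0.0038 over all genes, and 0 of 10 were called by edgeR, DESeq2 or limma-voom, where edgeR called 0.00263% of all genes. Cry1 (-0.42, SE 0.16), Per3 (-0.44, SE 0.17) and Nr1d2 (-0.63, SE 0.24) had an unadjusted p below 0.05, where 4.17% of all genes did, 1.94% below 0, and each had an adjusted p of 0.914. Without MRL-IRAK4-KD replicate 4 the value of Nr1d2 was -0.47 (SE 0.11), the median was -0.42 and 4 members passed. Without the library labelled IRAK4-KD replicate 3 the median was -0.39 and 2 members passed, and without both libraries 9 of 10 values were below 0.

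**Figure D5:**
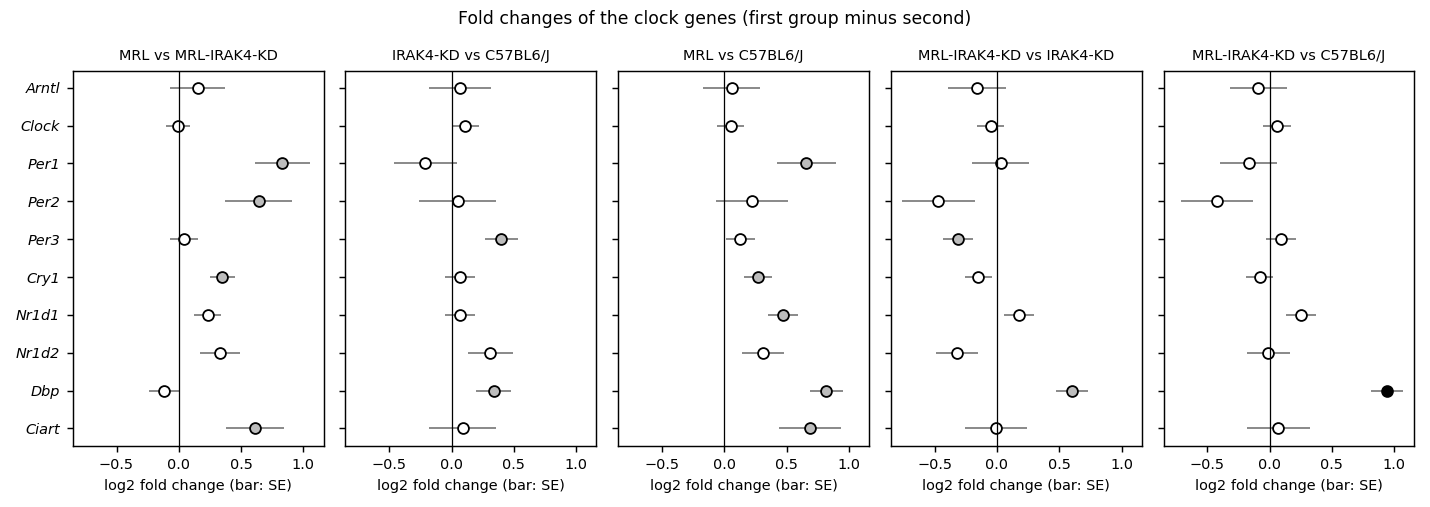
Log2 fold change of each clock gene in 5 comparisons, the first group minus the second, with bars of 1 SE. A black point is called at an adjusted p below 0.05, a grey point has an unadjusted p below 0.05 and a white point neither. Dbp in MRL-IRAK4-KD against C57BL6/J mice, at 0.94, is the only black point.

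The other genes of the loop and its surroundings were listed alongside. Of 11 further core loop genes, 4 were higher in MRL than in MRL-IRAK4-KD mice with an unadjusted p below 0.05, where 5.14% of all genes were higher, and 0 were called by edgeR in any of the 6 comparisons. All 11 had log2 fold changes above 0, with a median of 0.23. The count was also 4 and the median 0.19 without MRL-IRAK4-KD replicate 4. Rorb, an activator of Arntl, had a log2 fold change of 0.67 (SE 0.21, adjusted p = 0.401), with 25.8, 52.5, 38.4 and 41.5 CPM in MRL mice and 17.8 to 33.8 CPM in MRL-IRAK4-KD mice. Bhlhe40, the repressor DEC1, had 98.5, 130, 125 and 98.1 CPM in MRL mice and 89.6, 82.4, 78.4 and 39.0 CPM in MRL-IRAK4-KD mice, and a log2 fold change of 0.64 (SE 0.21, adjusted p = 0.418). Hlf, a PAR-bZIP factor like Dbp, had a log2 fold change of 0.40 (SE 0.14, adjusted p = 0.432). Hlf did not separate the groups as Dbp did, with 101 to 209 CPM in lpr and 150 to 190 CPM in non-lpr mice. Summed over the 11 genes, MRL-IRAK4-KD replicate 4 was lowest, at 574 CPM against 788 to 955 CPM in the others.

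Genes that act on clock proteins moved little. Of 13 kinases, ubiquitin ligases and partners, 1 was higher at an unadjusted p below 0.05 in MRL against MRL-IRAK4-KD mice, where 5.14% of all genes were, and 0 were called by edgeR. Timeless had a log2 fold change of 0.39 (SE 0.18, adjusted p = 0.439), Btrc, part of the ligase that degrades PER proteins, of 0.22 (SE 0.11, adjusted p = 0.445) and Cipc of 0.23 (SE 0.15, adjusted p = 0.506). Of 7 clock outputs, 1 was higher at an unadjusted p below 0.05 and 0 were called. Both counts were 0 without MRL-IRAK4-KD replicate 4. Klf10 had a log2 fold change of 0.52 (SE 0.24, adjusted p = 0.439), Lonrf3 of 0.57 (SE 0.33, adjusted p = 0.477) and Klf13 of -0.15 (SE 0.15, adjusted p = 0.672). In the averaged contrast, where Dbp was called, 0 of the 11 other core loop genes and 0 of the 7 outputs had an unadjusted p below 0.05. Higher at that threshold were 1 of the 13 kinases, ligases and partners, 2 of 12 immediate early and 2 of 8 temperature-responsive genes. So were 5 of 10 glucocorticoid-responsive genes, with a median log2 fold change of 0.3. The threshold was passed by 10.2% of all genes, and edgeR called 0 genes of these lists.

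Relations among the members were read against Arntl over the 14 mice, as Pearson's r of log2(CPM + 0.1), with 9 relations tested by permutation. Nr1d2 (r = 0.84, Spearman's rho = 0.508) and Per2 (r = 0.845, rho = 0.169) had the highest r, with permutation p-values of 0.0159 and 0.05 for r and 0.0663 and 0.562 for rho. Adjusted by the Benjamini-Hochberg method these were 0.143 and 0.225 for r, and 0.597 and 0.938 for rho, so 0 of 9 passed. Without the 2 mice farthest from the median of Arntl, MRL-IRAK4-KD replicates 4 and 2, r was 0.259 for Nr1d2 and 0.177 for Per2, so both relations rested on those mice. Within groups and without replicate 4, r was 0.171 and -0.0791. Dbp had an r of -0.274 with Arntl over all mice (permutation p = 0.404, adjusted p = 0.683) and of 0.281 without MRL-IRAK4-KD replicate 4.

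The genes whose levels were most like those of Dbp, by r over the 14 mice among 16104 genes with a mean of at least 1 CPM, were Rpp30 (r = 0.874), Map2k7 (0.853), Nol7 (0.844), Pkmyt1 (0.843) and Cenpa (0.843). Rpp30 and Nol7 were also among the 5 most alike without MRL-IRAK4-KD replicate 4, at 0.852 and 0.858. Those most like Arntl were Msl2 (0.978), Exoc1 (0.977), Lemd3 (0.976), Nae1 (0.976) and Ap1ar (0.975). Of these only Exoc1, at 0.867, stayed among the 5 without that replicate. Mice of a group share their genotype, and these values are descriptions without a test.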

How the data were processed

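Poly(A) RNA from perfused hippocampi of 14 mice was sequenced, with a library for each animal. Library preparation is described differently in the methods (SMART-seq, NexteraXT) and in the labels (a KAPA HyperPrep mRNA kit), and which applied is not settled here. Alignment to mm10 by the authors used HISAT2 2.1.0, and they obtained counts per gene and transcript with StringTie 2.1.0, and deposited them as whole-number counts without normalization. StringTie derives counts from coverage. Totals, 279941472 to 572398312 per library, exceed the reads, and the cause was not tested. The annotation and the strand setting are not given in the sources used here, and the identifiers match GENCODE M21. The authors also deposited a sheet of the sequencing core with reads and qPCR concentrations per library, read here as scores that describe library quality. Features that are not Ensembl genes, at most 0.188% of counts, were left out.

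The filter kept genes whose counts over all libraries reached 10, which were tested in edgeR 4.0.16 (R 4.3.3), quasi-likelihood with robust dispersion, TMM and 1 model of the 4 groups. Groups came from the labels. Benjamini-Hochberg adjustment covered all 38070 genes, and the tests were checked on simulated data. DESeq2 1.42.0, limma 3.58.1 (voom with quality weights), RLE size factors, other filters, the compared groups alone, the replicate number as a block and each mouse left out were the alternatives. CPM was TMM-scaled, with 0.1 added on the log2 scale. Correlations were tested with 100000 resamples, 2-sided. The members and the gene lists were chosen with earlier results of these data known, so that no p is given for a list. Besides the members, the text names from each list of clock and context genes the 3 of lowest p in MRL against MRL-IRAK4-KD mice. That rule was used since 0 of these genes were called. The 5 genes most like Dbp and Arntl are also named. Mt1 and Mt2 were named outside the rule, and Fas, Sphk2, Thra and Camta1 were added as checks. Time of collection, litter and cage are not given in the sources used here, and the labels give no sex.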

Additional observations from a re-analysis of the deposited data

Results flagged for a closer look

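Groups of 4 mice were searched for a mouse whose gap to its nearest neighbour took up most of the range of the group, by Dixon's test, which flags about 5% of groups by chance. Of 20 tests, over 10 genes in MRL and MRL-IRAK4-KD mice, 2 passed. Nr1d2 had 55.6 CPM in MRL-IRAK4-KD replicate 4, and the gap to the next mouse was a 0.861 share of the range. The same library was lowest of all 14 mice for Arntl, Per1 and Per2 and highest for Dbp, and it is the library that stood apart on the first principal component. Cry1 had 12.0 CPM in MRL replicate 1, below the 14.4 to 14.5 CPM of the other MRL mice, with a share of 0.954.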

How the results depend on the processing

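Log2 fold changes were recomputed under RLE size factors, edgeR's filterByExpr, no filter, DESeq2, limma-voom with quality weights, the compared groups alone, the replicate number as a block and each mouse left out, and chosen after seeing the data were leaving out MRL-IRAK4-KD replicate 4 and the library labelled IRAK4-KD replicate 3 together, the gene lists without either, and the lpr contrast averaged over the mutation. Of 1170 recomputed log2 fold changes, 1080 kept their direction and side of the threshold. Each member had at least 2787 counts in every library. The number of members at an unadjusted p below 0.05 ran from 2 to 6 in MRL against MRL-IRAK4-KD mice, MRL against C57BL6/J mice and the interaction, and from 1 to 5 in MRL-IRAK4-KD against IRAK4-KD mice.

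The number of members called was 2 with DESeq2 and 1 with limma-voom in MRL against MRL-IRAK4-KD mice, 2 and 1 in MRL against C57BL6/J mice, 1 and 1 in MRL-IRAK4-KD against IRAK4-KD mice, and 2 and 2 in the averaged contrast. Over all genes DESeq2 called 397, 203, 305 and 761 of 37651 in these comparisons, and limma-voom 213, 38, 275 and 516 of 38070. The number of members called by edgeR was 1 in MRL against C57BL6/J mice without the 2 libraries. In MRL-IRAK4-KD against C57BL6/J mice it was 0 with the groups alone and 0 with the replicate block, and 0 to 1 with each mouse left out. In the averaged contrast it was 0 with the replicate block and 0 to 2 with each mouse left out. The cause was not tested. Correlations of same-numbered mice ran from -0.251 to 0.375. Mice of different numbers were not compared, so this cannot decide whether replicate numbers pair the mice. The block changed no other count of members called.

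Directions that turned all belonged to values near 0 that were called under no setting. With limma-voom, in MRL against MRL-IRAK4-KD mice, Arntl was -0.08 and Clock 0.02. In MRL-IRAK4-KD against IRAK4-KD mice Arntl and Ciart were both 0.06, and against C57BL6/J mice Arntl was 0.11 and Nr1d2 0.14. Arntl was 0.03 in the interaction. In the averaged contrast Arntl was 0.05, Per2 0.01 and Nr1d2 0.08. With the replicate block Ciart was 0.1 in MRL-IRAK4-KD against IRAK4-KD mice. Against C57BL6/J mice Arntl was 0.006 and Nr1d2 0.06, and in the averaged contrast Arntl and Nr1d2 were 0.09 and Per2 0.02. Without the 2 libraries Arntl was -0.08 and Clock 0.02 in MRL against MRL-IRAK4-KD mice, and Arntl was -0.005 and Per2 -0.0061 in IRAK4-KD against C57BL6/J mice. Arntl was 0.15 and Ciart 0.07 in MRL-IRAK4-KD against IRAK4-KD mice, and Arntl was 0.14 and Nr1d2 0.16 against C57BL6/J mice. Arntl was 0.09 in the interaction, and Arntl and Nr1d2 were 0.1, Per2 0.04 and Clock 0.02 in the averaged contrast.

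With each mouse left out in turn, Arntl ran from -0.07 to 0.31 and Clock from -0.06 to 0.07 in MRL against MRL-IRAK4-KD mice. In IRAK4-KD against C57BL6/J mice Arntl ran from -0.01 to 0.13, Per2 from -0.04 to 0.21, Cry1 from -0.01 to 0.14 and Nr1d1 from -0.03 to 0.12. In MRL-IRAK4-KD against IRAK4-KD mice Arntl ran from -0.31 to 0.07, Clock from -0.14 to 0.03, Per1 from -0.06 to 0.17 and Ciart from -0.09 to 0.06. Against C57BL6/J mice Arntl ran from -0.24 to 0.14, Per3 from -0.03 to 0.19, Nr1d2 from -0.1 to 0.16 and Ciart from -0.0048 to 0.15. In the averaged contrast Arntl ran from -0.12 to 0.07, Clock from -0.05 to 0.04, Per2 from -0.24 to 0.01 and Nr1d2 from -0.04 to 0.09.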

Other observations

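Counts of some members were divided among transcripts unevenly. One Ciart transcript held between 17.64% and 73.2% of the counts of the gene and another between 12.99% and 73.27%, so the sum over the gene was used throughout. A retained-intron transcript of Per3 held 4.89% to 31.97% of the counts of Per3. The highest share was that of MRL-IRAK4-KD replicate 4, where it had 4465 counts against 744 to 3088 in the other libraries. A single transcript of each of Cry1, Nr1d1 and Per2 held at least 98.46% of the counts in every library.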
